A study of Mus musculus with 15 samples.

Results

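The imprinted growth genes described here are 10 genes of the mouse that are expressed mainly from the chromosome inherited from 1 parent and act on growth: H19, Igf2, Peg3, Mest, Dlk1, Meg3, Plagl1, Cdkn1c, Peg10 and Grb10. They were taken by symbol, and all 10 were present among the 17271 genes of the deposited table. RNA was sequenced from 15 mouse mammary tumours of strain Balbc and genotype p53-NULL, so that the groups compared all lack the tumour suppressor p53. They came from 4 tumour models: 2208L gave 8 samples, 2151R gave 4, 2225L gave 2 and T11 gave 1. Of the 2208L samples 4 were titled PBS, 3 were titled 3day nt and 1 has ROSEN and a number in its title, as does replicate 2 of 2225L. All other titles end in CP and a number. These codes are called library prefix and library number here, but the titles do not say what they stand for. Of the 2151R samples 2 were titled NT or NT2 (replicates 4 and 3), and replicates 1 and 2 carry codes that are not explained, a number for replicate 1 and 53ca for replicate 2. Replicate 1 of 2225L is titled T-Vivo. No label gives an age, an origin in separate animals or a treatment beyond these titles, so p-values measure only the spread between these samples, which may be technical.

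Imprinting depends on methylation of CG dinucleotides that is set in the egg or sperm and kept in the embryo at control regions, each of which governs a group of genes. The clusters named below are lists of genes near the members, which need not all be imprinted or share a control region. Igf2, Peg3, Mest, Dlk1, Plagl1 and Peg10 are expressed from the paternal copy, and H19, Meg3 and Cdkn1c from the maternal copy. Grb10 is maternal in most tissues and paternal in brain. Many of these genes are abundant in the embryo and placenta, fall after birth and are known to change in tumours, where Igf2 acts as a growth factor and Cdkn1c and Grb10 restrain growth. H19 and Igf2 are read from the same enhancers, and in normal cells each parental copy uses them for only H19 or Igf2. The RNA of a tumour does not show which copy it came from, so these data give total levels only.

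Each value is a log2 level set against a reference of that gene which is not stated, called the centred log2 value below. Levels of different genes cannot be compared on this scale, and a value of 0 is no floor. Sequencing depth is unknown because the values are not counts, and no interval for counting error is given. A gene is called different where limma's test, fitted across all 17271 genes, gave a Benjamini-Hochberg adjusted p under 0.05. T11 has no replicate and carries no test.

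The members varied more across the 15 tumours than most genes: the range from the lowest to the highest sample had a median of 5.55 log2 units over the 10 members and 2.37 over all genes. Igf2 had a range of 11.5, larger than that of 99.3% of genes, and Mest the narrowest of the members at 4.0, larger than that of 74.3%. The samples also differed in marker genes of cell types. The mean of 10 epithelial genes, markers of the mammary epithelium that were low in 2151R and T11, was -4.67 to -3.63 in 2151R, -8.89 in T11, 2.10 and 2.11 in 2225L, and 0.25 to 1.27 in 2208L. The mean of 15 adult skeletal muscle genes was 9.70 and 9.09 in replicates 6 and 8 of 2208L, both titled 3day nt, and 6.05 in replicate 3 of 2151R, against -3.20 to 2.45 in the other 12 samples. In bulk RNA, fewer cells of a type and less RNA per cell cannot be told apart. The library numbers of 2151R, of the PBS samples and of the 3day nt samples lie in separate ranges, so that library range and group cannot be told apart.

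**Figure D1:**
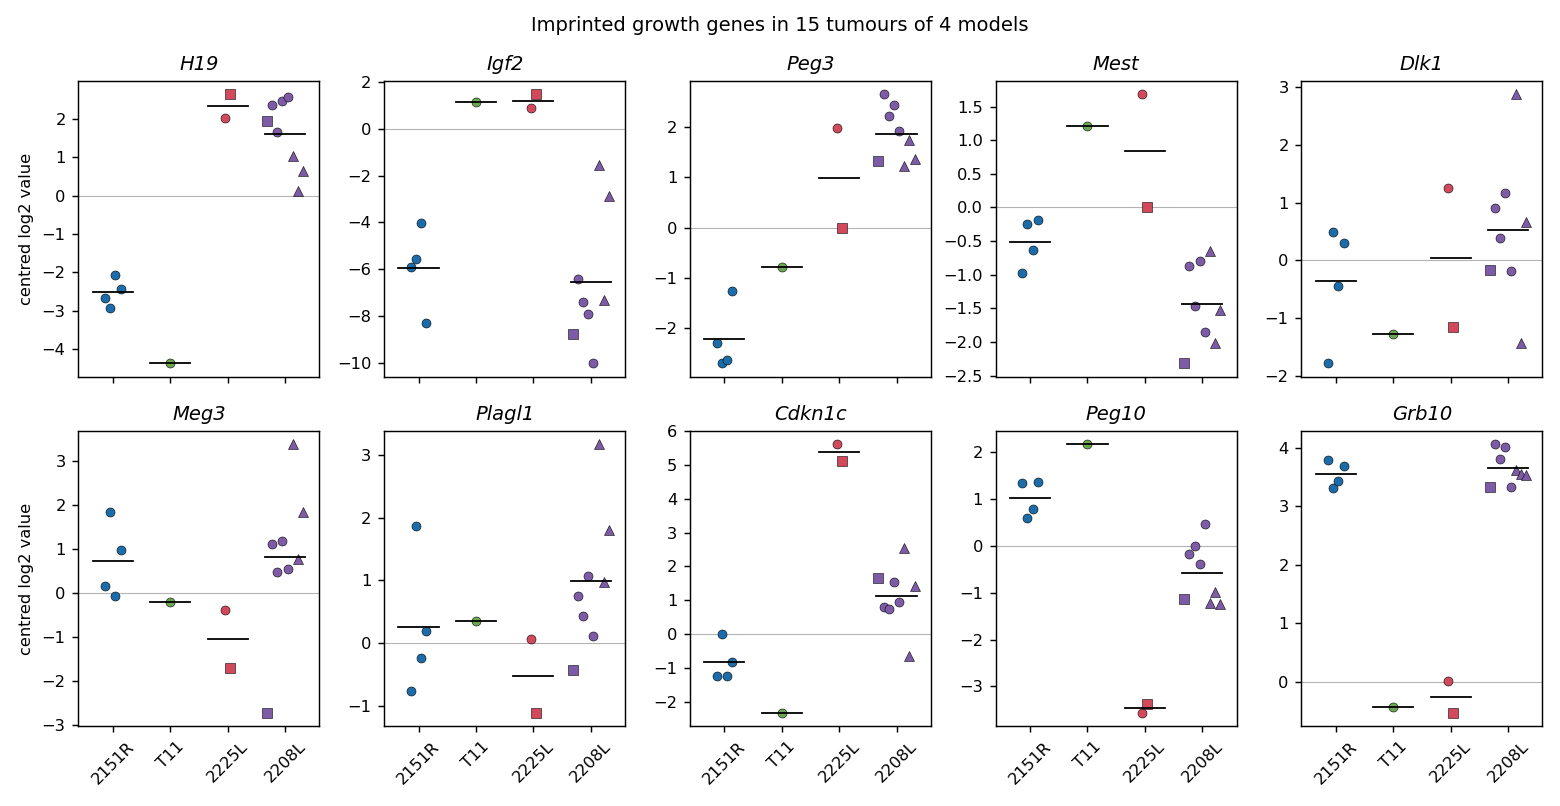
Centred log2 value (vertical axis, log2 units relative to the gene's own reference) of the 10 imprinted growth genes in each of the 15 tumours, by model. Points are samples, horizontal lines are means, triangles are the 3day nt samples of 2208L and squares are the samples with the prefix ROSEN. Grb10 lies between 3.31 and 4.06 in all samples of 2151R and 2208L and between -0.53 and 0.02 in T11 and 2225L.

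The promoters of Igf2, Meg3 and Plagl1, the members that were high together in replicates 6 and 8, and of Peg3 are shown with each CG dinucleotide, the site of methylation, in capitals. They are RefSeq windows of GRCm38.p6, from 250 bases before to 50 after a transcript start, 5′ to 3′ on the gene's strand, and where a gene has several starts the one with the most CG is given. Igf2 has chr7:142658755-142659054 (minus strand), Meg3 chr12:109540746-109541045 (plus), Plagl1 chr10:13090582-13090881 (plus) and Peg3 chr7:6730370-6730669 (minus).
Igf2: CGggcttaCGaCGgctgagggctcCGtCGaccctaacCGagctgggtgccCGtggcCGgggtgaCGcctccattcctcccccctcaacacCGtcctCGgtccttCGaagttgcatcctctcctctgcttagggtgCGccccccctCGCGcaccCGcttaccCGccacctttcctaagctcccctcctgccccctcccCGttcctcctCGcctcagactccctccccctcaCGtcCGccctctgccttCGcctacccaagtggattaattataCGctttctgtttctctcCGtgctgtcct
Meg3: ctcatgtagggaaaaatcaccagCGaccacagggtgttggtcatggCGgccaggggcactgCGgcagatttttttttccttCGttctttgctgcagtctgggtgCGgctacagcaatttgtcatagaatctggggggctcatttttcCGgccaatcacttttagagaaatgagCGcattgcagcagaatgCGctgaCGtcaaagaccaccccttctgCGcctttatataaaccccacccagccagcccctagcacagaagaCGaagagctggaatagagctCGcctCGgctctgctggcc
Plagl1: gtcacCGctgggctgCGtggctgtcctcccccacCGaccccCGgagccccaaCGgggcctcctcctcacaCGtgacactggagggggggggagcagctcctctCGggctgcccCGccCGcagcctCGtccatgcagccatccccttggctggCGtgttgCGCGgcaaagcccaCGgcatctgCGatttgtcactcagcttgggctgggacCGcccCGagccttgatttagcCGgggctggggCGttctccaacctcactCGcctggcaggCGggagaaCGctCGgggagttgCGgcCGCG
Peg3: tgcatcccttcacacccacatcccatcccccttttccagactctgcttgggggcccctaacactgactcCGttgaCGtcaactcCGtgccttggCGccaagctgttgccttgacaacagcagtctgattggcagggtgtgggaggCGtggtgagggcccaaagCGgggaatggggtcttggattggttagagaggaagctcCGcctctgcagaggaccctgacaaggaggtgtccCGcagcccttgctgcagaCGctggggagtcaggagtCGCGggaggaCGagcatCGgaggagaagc
They hold 24 (Igf2), 13 (Meg3), 26 (Plagl1) and 13 (Peg3) CG dinucleotides, more than 80.0%, 62.1%, 83.1% and 62.1% of the 32851 windows of this length. The window of Grb10 with the most CG had 45, more than 98.1% of windows. Windows were found for 7 of 10 members, and those of H19, Cdkn1c and Peg10 are not printed. Among 14 windows of the 7 genes, GGGGCCCC, a sequence bound by PLAGL1, was present in 1, that of Peg3, at position 50 counted from its 5′ end, and in 1.08% of all windows. The cAMP response element TGACGTCA was present in Meg3 at position 194 and in Peg3 at position 73, and in 1.79% of all windows. Each of these motifs reads the same on both strands. TATAAA, searched on both strands, was present in Meg3 and in 13.6% of all windows. These matches are letters in a window only, and methylation was not measured.

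H19 and Igf2 lie next to each other on chromosome 7 (GRCm38 positions 142575530 to 142578146 and 142650768 to 142666816) and took all 4 combinations of high and low in the 4 models. Both were high in 2225L, H19 was high and Igf2 low in 2208L, Igf2 was high and H19 lowest in T11, and both were low in 2151R. H19, a long non-coding RNA that is abundant in fetal tissue, had values of -2.67, -2.94, -2.07 and -2.43 in 2151R, -4.38 in T11, 2.03 and 2.64 in 2225L, and a lowest, median and highest value of 0.11, 1.80 and 2.57 in 2208L. The samples of 2151R and T11 were thus below every sample of the other models. H19 was lower in 2151R than in 2208L by a difference of -4.13 (SE 0.44, adjusted p = 4.73e-06), and higher in 2225L than in 2151R by 4.86 (SE 0.62, adjusted p = 3.18e-05). Between 2225L and 2208L the difference was 0.73 (SE 0.57, adjusted p = 0.351) and the samples overlapped.

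Igf2, the fetal insulin-like growth factor, had values of 0.91 and 1.47 in 2225L and 1.14 in T11. In 2151R its values were -5.92, -5.56, -4.01 and -8.32, and in 2208L the lowest, median and highest were -10.03, -7.36 and -1.53. No sample of 2151R or 2208L reached the level of T11 or 2225L. Igf2 was higher in 2225L than in 2208L by 7.72 (SE 1.81, adjusted p = 0.0056) and than in 2151R by 7.14 (SE 1.99, adjusted p = 0.00958). The groups did not overlap in either comparison, but both calls were lost when limma's prior was allowed to follow the mean value (adjusted p = 0.657 and 0.675, the same differences) and in the samples of library prefix CP alone (7.12 and 6.86, adjusted p = 0.06 and 0.0634). The call against 2208L was lost with sample weights too (8.29, adjusted p = 0.0758). The call against 2151R was also lost without replicate 2 of 2225L (6.86, adjusted p = 0.0623). Without the 3 samples of high muscle values the differences were 9.16 and 7.79, both called. Within 2225L, Igf2 was higher in replicate 2 than in replicate 1. The muscle means of these replicates were -1.22 and 1.68, and their means of 10 adipocyte genes were 2.36 and -1.96. They also differ in library prefix (ROSEN and CP), and the part of any of these in Igf2 was not tested. Igf2os, a non-coding RNA named here because it overlaps Igf2, differed by 5.38 between 2225L and 2208L, and whether the counting used strand is not given in the sources used here, so reads of the pair may not have been told apart.

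T11 also had a high mean of 6 genes of embryonic and regenerating muscle, 3.70, led by the myogenic factor Myf5 at 10.22. That mean was 4.43 and 3.98 in replicates 6 and 8 of 2208L and at most 1.41 in any other sample, the latter in replicate 1 of 2225L. In the PBS samples, whose Igf2 values were -10.03 to -6.41, it was -2.12 to 0.27. The mean of the 15 adult muscle genes was 1.37 in T11 and -2.41 to 2.45 in the PBS samples. The part of either muscle list in the Igf2 level of T11 was not tested.

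**Figure D2:**
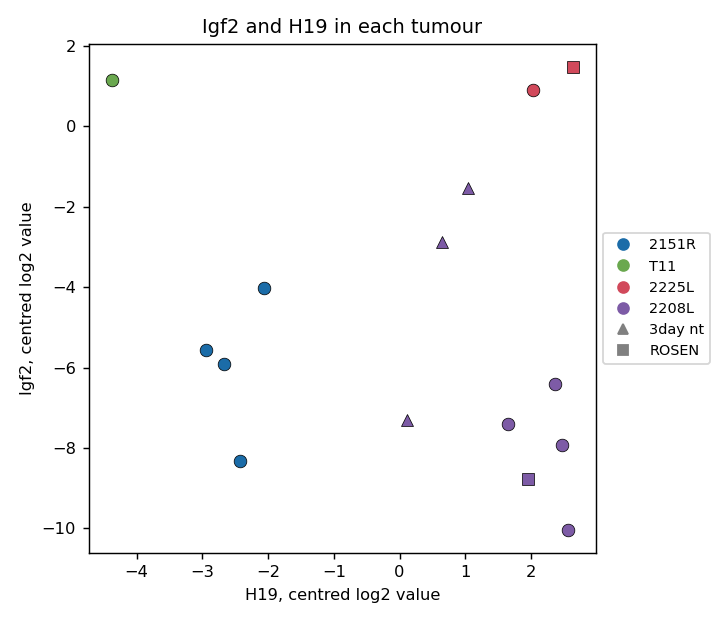
Centred log2 value of Igf2 (vertical axis) against that of H19 (horizontal axis) in each of the 15 tumours, coloured by model, with triangles for the 3day nt samples and squares for the prefix ROSEN. The 2 samples of 2225L are high in both genes, T11 is high in Igf2 at the lowest H19, and the 4 samples of 2151R are low in both.

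Of the 15 other measured genes of the cluster around H19 and Igf2, limma called 1 higher and 4 lower in 2151R when compared with 2208L, where 48.8% of all genes were called in either direction (26.1% higher and 22.7% lower), and 3 higher and 1 lower for 2225L against 2208L, where 32.9% were called (15.6% higher and 17.3% lower). Phlda2, a placental growth restrainer of the maternal copy, was lowest in the models where H19 was lowest: its values were -5.09, -5.42, -3.74 and -5.03 in 2151R, -6.92 in T11, 0.00 and 2.77 in 2225L, and 1.18 to 2.02 in 2208L. It was lower in 2151R than in 2208L by a difference of -6.44 (SE 0.44, adjusted p = 5.62e-08). Cd81, a tetraspanin, Tssc4 and the cation channel Trpm5 were also lower in 2151R (differences of -1.30, -1.21 and -3.74). Kcnq1, a potassium channel gene that overlaps Kcnq1ot1, was called higher (1.20, adjusted p = 0.0495), but not without replicate 1, 2, 3 or 4 of 2151R or replicate 1, 6, 7 or 8 of 2208L (the highest difference 1.34 and the highest adjusted p 0.114).

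In 2225L against 2208L the transporter gene Slc22a18 was higher by 2.49 and the decoy receptor gene Tnfrsf23 was lower by a difference of -3.21. Ascl2, a trophoblast transcription factor, and Kcnq1 were called higher by 3.07 and 2.90, but not without replicate 2 of 2225L (1.67 and 2.24). In 2225L against 2151R 7 of the 15 genes were higher (Ascl2, Tspan32, Cd81, Tssc4, Kcnq1, Slc22a18 and Phlda2) and Tnfrsf23 was lower, where 48.6% of all genes were called (22.8% higher and 25.8% lower). The median difference of the 15 genes was 1.42 there, against -0.10 in 2151R and -0.02 in 2225L when each was compared with 2208L. Of these, Ascl2, Tspan32, Tssc4 and Kcnq1 were lost without replicate 2 of 2225L (1.93, 1.84, 0.97 and 1.04), and Tspan32 and Kcnq1 without other samples as well. Kcnq1ot1, Nap1l4, Osbpl5, Mrpl23, Tnnt3 and Lsp1 were called in none of these 3 comparisons, though Lsp1 was called in 2151R against 2208L without replicate 6 or 8 of 2208L (1.19 and 1.16) and Osbpl5 in both comparisons of 2225L without its replicate 2 (-1.004 and -1.19). Trpm5 and Phlda2 were likewise called lower in 2225L than in 2208L only without that replicate (-4.66 and -1.62). Tspan32 was called higher in 2225L than in 2208L without replicate 6, 7 or 8 of 2208L (2.39, 2.25 and 2.24, against 2.10 with all samples), and Cd81 without replicate 1 of either model (1.17 and 0.77, against 0.68). Trpm5 was called higher in 2225L than in 2151R without replicate 1 of 2225L (4.23, against 1.65).

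Cdkn1c, which encodes the cell cycle inhibitor p57 and lies further along the same chromosome (chromosome 7, 143458339 to 143461059), set 2225L apart. Its values there were 5.61 and 5.12, against -1.23, 0.00, -1.23 and -0.82 in 2151R, -2.32 in T11, and a lowest, median and highest of -0.64, 1.18 and 2.54 in 2208L. All other samples lay below both. The difference was 4.23 from 2208L (SE 0.59, adjusted p = 0.000155) and 6.18 from 2151R (SE 0.65, adjusted p = 5.48e-06). Cdkn1c was lower in 2151R than in 2208L by a difference of -1.95 (SE 0.46, adjusted p = 0.00326), although replicate 7 of 2208L lay inside the range of 2151R.

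Grb10, an adaptor protein that binds the insulin and insulin-like growth factor receptors and dampens their signal, was high where Igf2 was low. Its values were 3.79, 3.31, 3.43 and 3.69 in 2151R and a lowest, median and highest of 3.32, 3.59 and 4.06 in 2208L, against 0.02 and -0.53 in 2225L and -0.42 in T11. The levels in 2151R and 2208L overlapped (difference -0.10, SE 0.18, adjusted p = 0.674). Grb10 was lower in 2225L than in 2208L by a difference of -3.91 (SE 0.23, adjusted p = 1.12e-07) and than in 2151R by -3.81 (SE 0.25, adjusted p = 9.31e-08), and in T11 it differed from the mean of 2208L by -4.07.

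The neighbours of Grb10 on chromosome 11 (11930499 to 12037428 for Grb10) were compared with it in 2225L. The 10 nearest measured genes on each side had a median difference of -0.09 between 2225L and 2208L. Of these 20 genes, limma called 0 higher and 3 lower, against 15.6% and 17.3% of all genes. Between 2225L and 2151R, where Grb10 differed by -3.81, their median was -0.97. There 2 were called higher and 9 lower, against 22.8% and 25.8% of all genes. Cobl, an actin nucleator next to Grb10, differed by -0.32 between 2225L and 2208L (adjusted p = 0.491), not called, and Ddc, which makes dopamine and serotonin, by 1.07 (adjusted p = 0.252), also not called. Cobl was instead low in 2151R (-4.64 to -3.43) and T11 (-3.23) and 0.34 to 1.33 in 2208L. Its difference of -4.89 between 2151R and 2208L (SE 0.26, adjusted p = 4.45e-09) stood beside the difference of -0.10 in Grb10.

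Peg10, a gene derived from a retrotransposon that the placenta needs, had its lowest values in 2225L, -3.57 and -3.37. The values were 1.34, 0.60, 0.80 and 1.37 in 2151R, 2.18 in T11, and a lowest, median and highest of -1.23, -0.68 and 0.47 in 2208L. The 4 models did not overlap, with T11 highest, then 2151R, then 2208L. Peg10 was higher in 2151R than in 2208L by 1.61 (SE 0.32, adjusted p = 0.00108), and lower in 2225L than in 2208L by a difference of -2.89 (SE 0.42, adjusted p = 0.000203) and than in 2151R by -4.50 (SE 0.46, adjusted p = 4.17e-06).

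The genes beside Peg10 on chromosome 6 (4747306 to 4760517 for Peg10) were mostly low in 2225L too. Of 7 measured genes of its cluster, limma called 5 lower in 2225L than in 2208L and 6 lower than in 2151R, and none higher in either, where 17.3% and 25.8% of all genes were called lower. Sgce, the paternally expressed sarcoglycan gene that shares a control region with Peg10, had values of -2.45 and -2.77 in 2225L, 0.55 to 0.87 in 2151R, 0.65 in T11 and -0.61 to 0.06 in 2208L. Its difference of -2.33 from 2208L (SE 0.19, adjusted p = 2e-06) stood beside that of -2.89 in Peg10. Ppp1r9a, a neuronal actin-binding protein, differed by -4.56 and the lactonase gene Pon3 by -1.71. Pon2 (-0.82) and Tfpi2, a protease inhibitor (-1.55), were also called, but not without replicate 1 of 2225L (-0.52 and -1.35). Casd1 and Asb4 were not called against 2208L (-0.04 and -1.85), but Asb4 was called without replicate 1 of 2225L or replicate 1, 3 or 7 of 2208L (-2.55, -1.97, -1.98 and -2.02). Both were lower than in 2151R (-1.93 and -3.003), Asb4 not without replicate 2 of 2225L (-2.30).

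In 2151R against 2208L the same cluster had 4 genes called higher (Sgce 0.996, Pon2 2.16, Pon3 3.99 and Casd1 1.89) and Ppp1r9a called lower (-1.32), while Tfpi2 (-0.40) and Asb4 (1.15) were not called, the latter called at 1.35 and 1.38 without replicate 6 or 8 of 2208L. The 20 measured genes nearest to Peg10 had a median difference of 1.14 with 11 called higher and 3 lower (26.1% and 22.7% of all genes), and 8 of these 20 are in the lists used here. Among them Pon2, Pon3 and Casd1 had larger differences than Sgce. In 2225L against 2208L the median of the 20 was -0.89, with 8 called lower and 2 higher (17.3% and 15.6% of all genes).

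**Figure D3:**
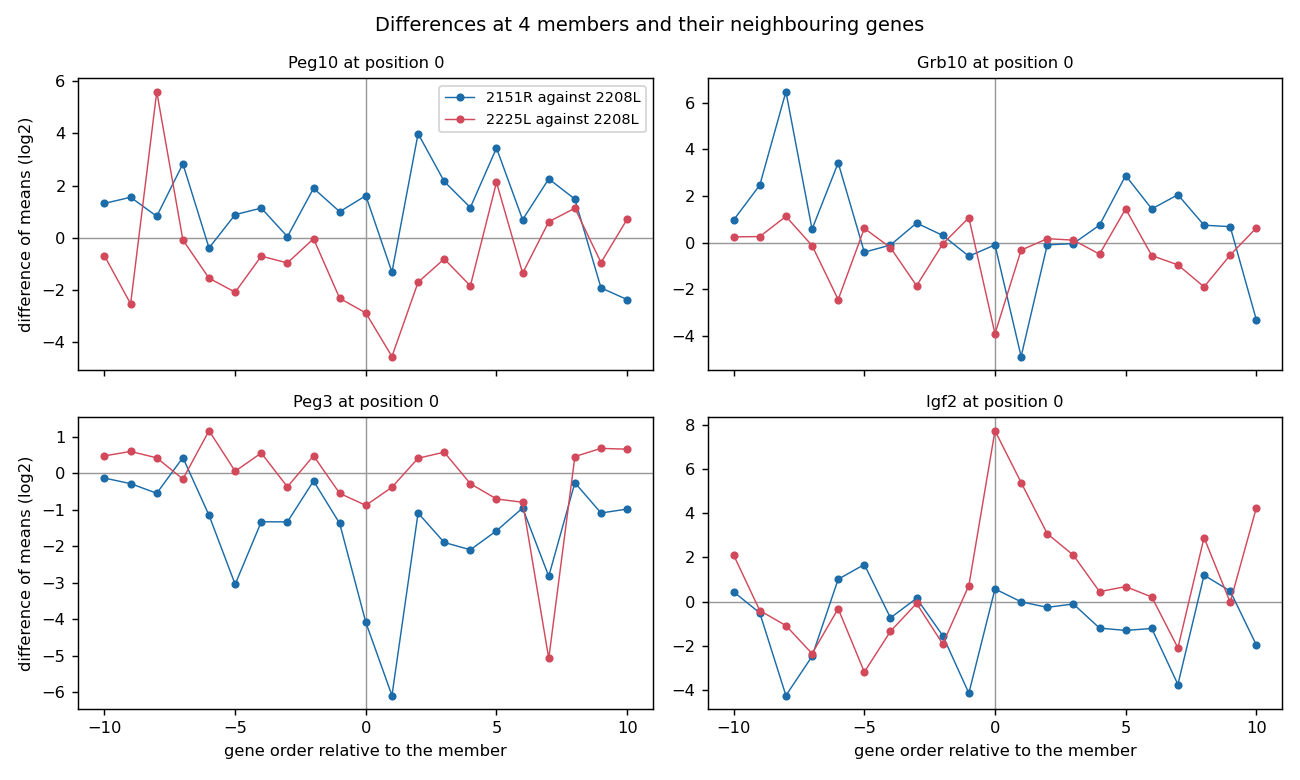
Difference of group means (log2 units, vertical axis) for Peg10, Grb10, Peg3 and Igf2 at position 0 and for the 10 measured genes on each side in gene order (horizontal axis), for 2151R against 2208L and 2225L against 2208L. Grb10 stands at -3.91 in 2225L beside neighbours whose median is -0.09, Peg10 (-2.89) is flanked by lower genes and Peg3 in 2151R (-4.09) lies beside neighbours with a median of -1.12.

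Peg3, a zinc finger protein of the placenta and brain that has been described as silenced in tumours, was low in 2151R and T11. Its values were -2.30, -2.70, -2.63 and -1.26 in 2151R and -0.79 in T11, against 1.98 and 0.00 in 2225L and a lowest, median and highest of 1.22, 1.83 and 2.65 in 2208L. It was lower in 2151R than in 2208L by a difference of -4.09 (SE 0.40, adjusted p = 2.23e-06) and higher in 2225L than in 2151R by 3.21 (SE 0.57, adjusted p = 0.00046). Against 2208L the difference of 2225L was -0.88 (adjusted p = 0.217), and without replicate 1 of 2225L it was -1.86 and called (adjusted p = 0.0302). Usp29, a deubiquitinase gene that is read from the same start region in the opposite direction, was low in the same samples (-7.33, -6.08, -4.72 and -3.88 in 2151R, -3.49 in T11, 0.35 and 0.07 in 2225L, 0.00 to 0.95 in 2208L). Its difference between 2151R and 2208L was -6.09 (SE 0.48, adjusted p = 2.66e-07). Zim1, a maternally expressed zinc finger gene of the cluster, differed by -1.37 (adjusted p = 0.0543), and was called without replicate 7 or 8 of 2208L (-1.51 and -1.49). Its 2 samples of 2225L stood far apart (2.02 and -1.11), and it was called lower than in 2208L without the first (-2.11) and higher than in 2151R without the second (2.39). In T11 it was at -3.45, the lowest of all samples.

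The wider region of Peg3 on chromosome 7 (6703892 to 6730462 for Peg3) is rich in zinc finger genes. Of the 20 nearest measured genes, 13 were called lower and 0 higher in 2151R than in 2208L, with a median difference of -1.12, where 22.7% of all genes were called lower and 26.1% higher. In 2225L against 2208L their median was 0.42, with 2 higher and 3 lower (15.6% and 17.3% of all genes). H19, Phlda2, Peg3, Usp29 and Cobl were low in the models whose epithelial genes were low: limma called 9 of 10 epithelial genes lower and 1 higher in 2151R than in 2208L, and all 10 lay more than 2 log2 units below the mean of 2208L in T11. The part of the epithelial genes in these differences was not tested.

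Mest, a paternally expressed gene for a hydrolase-like protein of embryonic mesoderm and fat, had its highest model level in T11 at 1.21, below replicate 1 of 2225L, and its lowest in 2208L (-2.32, -1.49 and -0.65 as lowest, median and highest). The values were -0.98, -0.24, -0.63 and -0.18 in 2151R and 1.68 and 0.00 in 2225L, whose 2 samples differed by 1.68. Mest was higher in 2225L than in 2208L by 2.27 (SE 0.48, adjusted p = 0.00272), and without replicate 1 of 2225L the difference was 1.43 and not called (adjusted p = 0.0699), nor was it with sample weights (2.07, adjusted p = 0.0922). Its difference of 1.34 between 2225L and 2151R (adjusted p = 0.0473) was lost without any 1 of the 4 samples of 2151R (1.19 to 1.45) or without replicate 1 of 2225L (0.51). It was also lost with sample weights (1.25), with only these 2 groups in the fit (adjusted p = 0.0715), with only samples titled NT, nt or PBS (1.24) and without the 3 samples of high muscle values (1.30). Between 2151R and 2208L the difference was 0.93 (SE 0.37, adjusted p = 0.0524), called without replicate 2, 4 or 6 of 2208L (1.01, 1.02 and 1.04). Copg2, a coat protein gene that overlaps Mest on the other strand (Mest spans 30733506 to 30748466 of chromosome 6), was lower in 2151R than in 2208L by a difference of -1.46 (adjusted p = 0.000395), opposite in sign to that of Mest. Between 2225L and 2151R it was higher by 1.21 (adjusted p = 0.0143), the same sign as Mest, but not without replicate 2 of 2225L (0.75). Cep41, the other measured gene of the cluster, was not called in these 3 comparisons, apart from 2225L against 2208L without replicate 1 of 2225L (-1.13).

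Over the members as a list, the calls were spread over both directions. In 2151R against 2208L 4 of 10 members were called (Peg10 higher, and H19, Peg3 and Cdkn1c lower), against 48.8% of all genes. In 2225L against 2208L 5 of 10 were called (Igf2, Mest and Cdkn1c higher, Peg10 and Grb10 lower), against 32.9%. In 2225L against 2151R 7 of 10 were called (H19, Igf2, Peg3, Mest and Cdkn1c higher, Peg10 and Grb10 lower), against 48.6%. These comparisons share their samples pairwise. The groups did not overlap in 3, 5 and 8 of 10 members in these comparisons, in that order, against 38.8%, 31.7% and 62.4% of all genes. In T11, 7 of 10 members lay more than 2 log2 units from the mean of 2208L, as 16.9% of all genes did: Igf2 (7.67), Peg10 (2.76) and Mest (2.64) above, and H19 (-5.98), Grb10 (-4.07), Cdkn1c (-3.45) and Peg3 (-2.66) below. The same 7 lay outside the range of 2208L, as 57.5% of all genes did. T11 is a single tumour, so nothing separates the model from this sample.

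**Figure D4:**
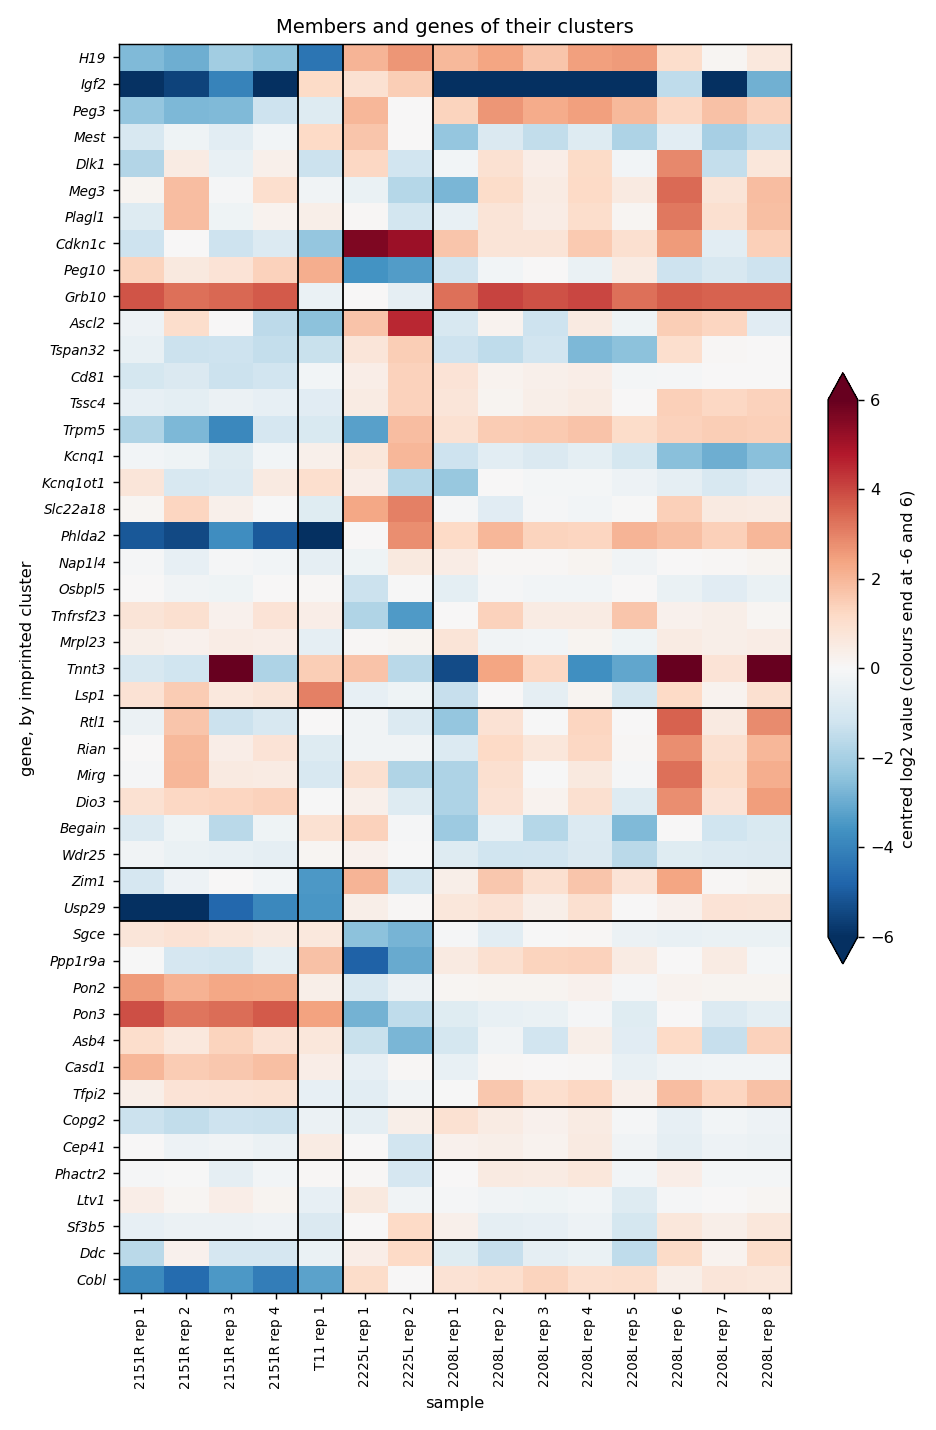
Centred log2 values (colour, with the scale ending at -6 and 6) of the 10 members (top block) and of the 37 measured genes of their clusters (lower blocks, separated by lines) in the 15 tumours, ordered by model. Usp29, Phlda2 and Cobl are blue in 2151R and T11, and Rtl1, Rian, Mirg and Dio3 are red in replicates 6 and 8 of 2208L with Meg3 and Plagl1.

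Dlk1, Meg3 and Plagl1 were not called between any of the models in the fit of all samples, and their largest differences lay within models. Dlk1, a membrane protein that holds back fat cell formation, had values of -1.78, 0.50, -0.44 and 0.31 in 2151R, -1.27 in T11, 1.25 and -1.15 in 2225L, and -1.43, 0.52 and 2.87 as lowest, median and highest in 2208L. Meg3, the maternal non-coding RNA of the same cluster on chromosome 12 (109540996 to 109571729, with Dlk1 at 109452485 to 109463336), had 0.16, 1.85, -0.06 and 0.99 in 2151R, -0.21 in T11, -0.38 and -1.70 in 2225L, and -2.72, 0.95 and 3.39 in 2208L. Plagl1, a zinc finger factor on chromosome 10 (13090832 to 13131694) that is known to act on other imprinted genes, had -0.76, 1.86, -0.24 and 0.19 in 2151R, 0.35 in T11, 0.06 and -1.11 in 2225L, and -0.43, 0.86 and 3.17 in 2208L. The 3 replicated models overlapped in Dlk1 and Plagl1, and in Meg3 2225L lay below all of 2151R but not of 2208L.

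Meg3 was lowest of all samples in replicate 1 of 2208L (-2.72) and next lowest in replicate 2 of 2225L (-1.70), the 2 samples with the library prefix ROSEN. Replicate 1 of 2208L also had the lowest means of fibroblast (-1.50), endothelial (-1.28), adult muscle (-3.20) and embryonic muscle genes (-2.21). Its means of adipocyte, macrophage and epithelial genes were not the lowest. The part of the prefix or of these cell types in Meg3 was not tested. Without replicate 1 of 2208L, Meg3 was called lower in 2225L than in 2208L (-2.38, adjusted p = 0.0219), against -1.87 (adjusted p = 0.203) with it. Between the 2 ROSEN samples the difference of 2225L from 2208L was 1.02 in Meg3, and in the CP samples it was -1.72. For the members called between 2225L and 2208L the 2 prefixes gave the same direction: Igf2 10.25 and 7.12, Mest 2.32 and 2.98, Cdkn1c 3.46 and 4.55, Peg10 -2.24 and -3.07, and Grb10 -3.86 and -3.68 (ROSEN first, each with 1 sample of 2225L). Those calls came from a fit that held these same samples, so the shared direction is no separate test. Of the members not called, Peg3 (-1.33 and 0.04) and Dlk1 (-0.98 and 0.63) changed direction, as Meg3 did. H19 (0.69 and 0.47) and Plagl1 (-0.68 and -1.12) did not.

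Within 2208L, Igf2, Meg3 and Plagl1 were highest in replicates 6 and 8, the samples of high muscle values, and Dlk1 was highest in replicate 6 but in replicate 8 (0.67) below replicates 2 and 4 (0.91 and 1.16). Replicate 6 exceeded the mean of the other 6 samples of 2208L by 6.44 in Igf2, 3.16 in Meg3, 2.76 in Dlk1 and 2.69 in Plagl1. Replicate 8 exceeded it by 5.09, 1.61, 0.56 and 1.31. In 3 of 10 members (Igf2, Meg3 and Plagl1) both samples lay above all 6 others, as in 18.4% of all genes. In the cluster of Dlk1 and Meg3 this held for 4 of 6 measured genes: Rtl1, a placental gene derived from a retrotransposon, the non-coding RNAs Rian and Mirg, and Dio3, which inactivates thyroid hormone. Their values in replicates 6 and 8 were 3.56 and 2.82 (Rtl1), 2.79 and 1.98 (Rian), 3.30 and 2.18 (Mirg) and 2.77 and 2.52 (Dio3), and the highest of the other 6 samples of 2208L was 1.27, 1.25, 1.12 and 0.96. Begain and Wdr25 at the edge of the cluster did not show this. Meg3, Rtl1 and Rian overlap in the annotation, so their reads may not have been told apart.

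In the lists of other cells, both replicates lay above the other 6 samples in 6 of 6 embryonic and regenerating muscle genes and 5 of 10 fibroblast genes. The same held for 2 of 10 adipocyte, 2 of 8 macrophage, 1 of 8 endothelial and 0 of 10 epithelial genes, and for 18.4% of all genes. It held for 15 of 15 adult muscle genes too, but these are the genes by whose mean the 2 samples were singled out. The 3 genes whose values followed Igf2 most closely over the 8 samples were Txlnb, Cox6a2 and Jph1 (Pearson r 0.995, 0.990 and 0.987). Cox6a2 and Jph1 are genes of striated muscle. For Plagl1 they were Pik3r6, Bfsp1 and Mmp23 (0.994, 0.991 and 0.987), for Meg3 Lamtor3, Plekhg4 and Shc2 (0.996, 0.989 and 0.987), and for Dlk1 Tmem220, Rps6ka2 and Dnaic2 (0.971, 0.960 and 0.958). These are the highest of many correlations, over 8 points that share their libraries, and serve as description only. The part of muscle RNA in the levels of Igf2, Dlk1, Meg3 and Plagl1 was not tested.

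Replicate 3 of 2151R, whose muscle mean was 6.05, had the highest Igf2 of its model (-4.01), but its Dlk1, Meg3 and Plagl1 were not the highest there. Those were highest in replicate 2 (0.50, 1.85 and 1.86), together with Rtl1, Rian and Mirg (1.65, 1.94 and 2.0). Replicate 2 had a muscle mean of -2.15, the highest mean of 10 adipocyte genes of its model (4.67, against 1.68 to 4.33) and the highest mean of 10 fibroblast genes (1.90, against 0.35 to 1.21). Their part in these values was not tested.

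**Figure D5:**
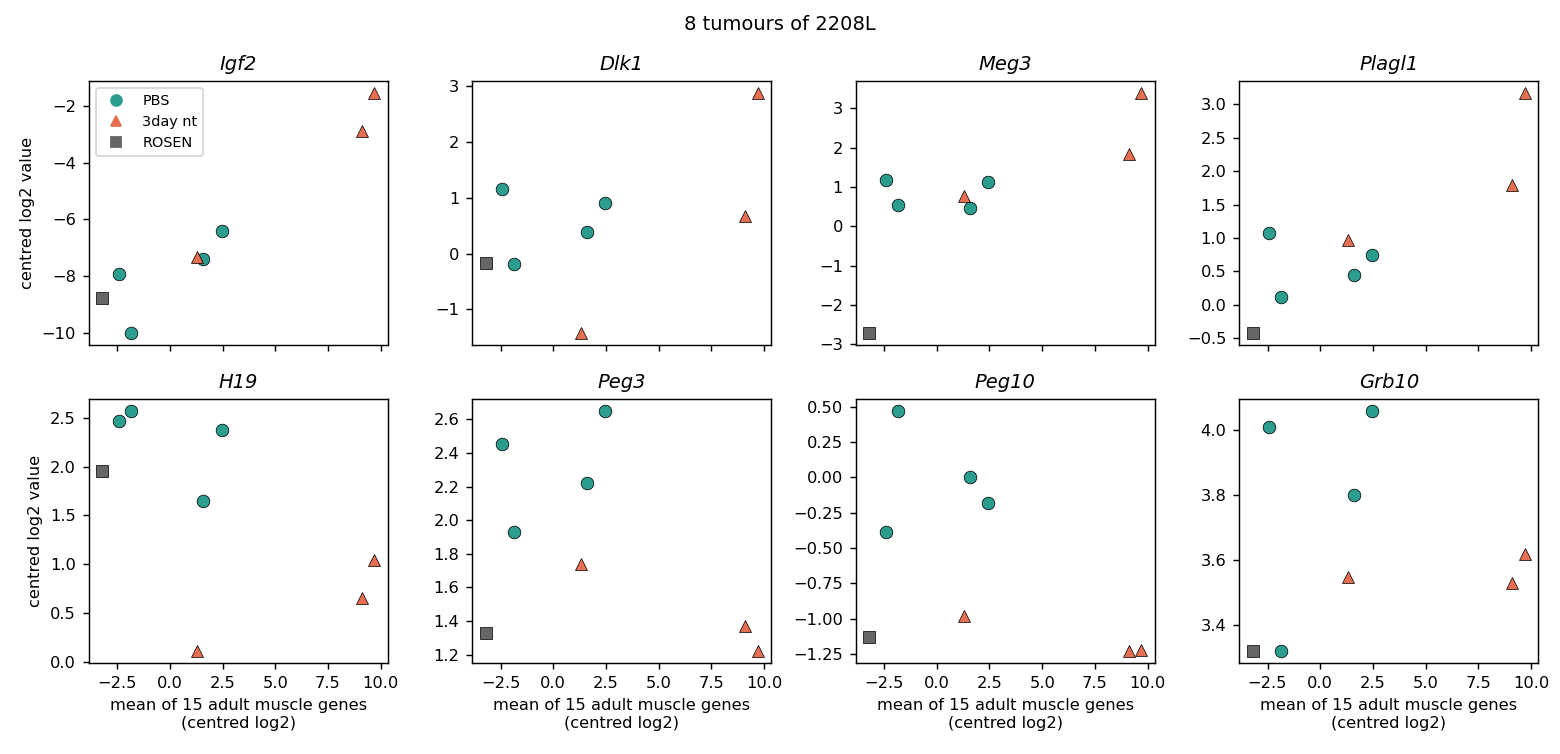
Centred log2 value of 8 members (vertical axes) against the mean centred log2 value of 15 adult skeletal muscle genes (horizontal axes) in the 8 tumours of 2208L, marked as PBS, 3day nt and ROSEN. Replicates 6 and 8 at the right (muscle means 9.70 and 9.09) are highest in Igf2, Meg3 and Plagl1, while H19 is lowest in replicate 7, a 3day nt sample with a muscle mean of 1.29.

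The PBS and 3day nt samples of 2208L were compared with each other, as the titles separate them. H19, Peg3 and Peg10 were higher in the PBS samples, 3 of 10 members, where 34.0% of all genes were called (17.4% higher and 16.5% lower in PBS). H19 was 2.37, 1.65, 2.47 and 2.57 in PBS and 1.04, 0.11 and 0.65 in 3day nt (difference 1.66, adjusted p = 0.00937). Peg10 was -0.18, 0.00, -0.39 and 0.47 against -1.22, -0.98 and -1.23 (1.12, adjusted p = 0.011), and Peg3 was 2.65, 2.22, 2.45 and 1.93 against 1.22, 1.74 and 1.37 (0.87, adjusted p = 0.0225). The groups did not overlap in these 3 genes, nor in 44.8% of all genes. Peg10 lost its call without replicate 8 (1.07), and Peg3 without replicate 2, 4, 6 or 8 (0.76 to 0.83). Grb10 differed by 0.23 and was called without replicate 5 (0.39).

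No member was called lower in PBS. Igf2 was -6.41, -7.40, -7.92 and -10.03 in PBS and -1.53, -7.31 and -2.88 in 3day nt (difference -4.03, adjusted p = 0.0748), and Plagl1 differed by -1.39 (adjusted p = 0.0775) and Meg3 by -1.17 (adjusted p = 0.158). Without replicate 7, the 3day nt sample of low muscle values, these differences were -5.73, -1.78 in Meg3 and -1.89 in Plagl1, and all 3 were called. Without replicates 6 and 8 a single 3day nt sample remained, assumed to vary like the PBS samples, and limma called none of the members (H19 2.16, Peg3 0.57, Peg10 0.95, Igf2 -0.63, Meg3 0.05 and Plagl1 -0.38). In that sample H19 was lower than in replicates 6 and 8.

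Among the 37 cluster genes, 7 were called higher and 7 lower in PBS (37.8%, against 34.0% of all genes). Higher were Kcnq1 (1.87), Kcnq1ot1 (0.58), Osbpl5 (0.38), Ppp1r9a (0.89), Copg2 (0.61), Cep41 (0.64) and Cobl (0.53). Lower were Tspan32 (-2.31), Tssc4 (-1.10), Slc22a18 (-1.07), Mrpl23 (-0.52), Mirg (-1.83), Sf3b5 (-1.18) and Ddc (-1.77). Without replicates 6 and 8 the 3day nt group is 1 sample, and none of these 14 was called, but Kcnq1 was 2.13, Tspan32 -2.01 and Tssc4 -1.004, while Mirg was -0.75 and Ppp1r9a 0.54. Leaving out 1 sample at a time, Kcnq1, Tspan32, Tssc4 and Sf3b5 kept their calls, and the other 10 lost them without at least 1 of replicates 6 and 8.

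Phactr2, Ltv1 and Sf3b5 beside Plagl1 were called in no comparison of models in the fit of all samples (for Phactr2 the differences were -0.42 and -0.68, for Ltv1 0.44 and 0.37 and for Sf3b5 -0.34 and 0.65 from 2208L in 2151R and 2225L). Without replicate 1 of 2225L, Phactr2 was called lower than in 2208L (-1.24) and Sf3b5 higher than in 2151R (1.59). Wdr25, beside Dlk1, was higher in 2151R (0.63) and 2225L (1.15) than in 2208L. Begain was called higher in 2225L by 1.92, but not without its replicate 1 (1.19).

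Igf2 acts through the type 1 insulin-like growth factor receptor, is cleared by Igf2r and held by binding proteins, and its mRNA is bound by the Igf2bp proteins. Of 19 measured genes of this pathway, limma called 4 higher and 4 lower for 2151R against 2208L, 3 higher and 5 lower for 2225L against 2208L, and 4 higher and 3 lower for 2225L against 2151R. That is 42.1%, 42.1% and 36.8%, against 48.8%, 32.9% and 48.6% of all genes. The largest difference was in Igf2bp1, an oncofetal RNA-binding protein, which was 8.70 to 9.89 in 2208L and -1.97 to 0.84 in all other models (-10.45 for 2151R and -10.04 for 2225L, adjusted p = 1.13e-09 and 1.3e-07). Igf2bp3 went the other way, at -5.47 to -2.60 in 2208L and -0.72 to 0.76 elsewhere (3.37 and 3.51). Igf2bp2 was lowest in 2225L at -3.25 and -7.45 (-4.69 from 2208L and -6.69 from 2151R) and higher in 2151R than in 2208L (adjusted p = 0.00918). The model with the lowest Igf2 median, 2208L, had the highest Igf2bp1. In 2151R, whose Igf2 overlapped that of 2208L, Igf2bp1 was low (-1.61, -0.21, 0.00 and -1.97). A link between the levels of Igf2bp1 and Igf2 was not tested.

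Igf2r, the maternally expressed receptor that takes up and degrades Igf2, was lower in 2151R and 2225L than in 2208L (-1.80 and -2.02), and 1.08 in T11. Igfbp5 was also lower in both (-4.24 and -2.46, the latter not without replicate 1 of 2225L, -1.95) and Igfbp2 in 2151R (-5.90). Pappa, a protease that frees insulin-like growth factors from binding proteins, was lower in 2225L than in 2208L (-4.50) and 2151R (-3.79), where Stc2, its inhibitor, was higher (2.54 and 2.72). Igfbp2 was higher in 2225L than in 2151R by 6.39. Stc1 was higher in 2151R than in 2208L by 3.21. Irs2 was called higher in 2225L than in 2208L (0.86), but not without replicate 1 or 2 of 2225L or 6 of 2208L (0.96, 0.76 and 0.84). Igf1r and Insr, the receptors, were called in none of these 3 comparisons in the fit of all samples, though Igf1r was called lower in 2225L than in 2151R without replicate 1 of 2225L (-1.49). In PBS against 3day nt 9 of 19 were higher and 2 lower (57.9%, against 34.0% of all genes), led by Igfbp2 (2.61), Irs1 (1.86) and Stc1 (1.68) above and Igf1 (-2.61) and Igfbp6 (-2.45) below, and none of these 5 was called with replicate 7 as the 1 sample of 3day nt, where the differences were 2.55, 1.34 and 2.08 for the first 3 and -1.47 and -0.60 for the others.

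The 12 measured genes that act on imprints or on DNA methylation include Tet1, Tet2 and Tet3. Of the 12, 4 were called higher and 4 lower for 2151R against 2208L, 2 and 1 for 2225L against 2208L, and 3 and 6 for 2225L against 2151R. That is 66.7%, 25% and 75%, against 48.8%, 32.9% and 48.6% of all genes. In 2225L the de novo DNA methyltransferase Dnmt3a was at -3.58 and -3.28 and Dnmt3b at 3.03 and 3.08, against 0.97 to 1.82 and -0.49 to 0.39 in 2208L (differences -4.88 and 2.92, adjusted p = 6.88e-08 and 6.16e-07). Dnmt3a and Dnmt3b departed in opposite directions in 2225L, the model where Igf2 and H19 were both high. In T11, where Igf2 was high and H19 lowest, Dnmt3a was 0.46 and Dnmt3b -0.47. A link of these genes with Igf2 or H19 was not tested. Trim28, a corepressor, was also higher in 2225L than in 2208L (0.97), not without replicate 2 of 2225L (0.63). Zfp57, a zinc finger protein that protects imprints, was highest in T11 (2.68) and higher in 2151R than in 2208L by 2.20, and Tet1, which oxidises methylcytosine, was lower in 2151R by a difference of -2.91. Dnmt3a was also lower in 2151R than in 2208L (-1.64). In PBS against 3day nt 4 of 12 (33.3%, against 34.0% of all genes) were higher, led by Tet1 (2.07), Tet2 (0.67) and Dnmt3a (0.63), and none of these 3 was called with replicate 7 as the 1 sample of 3day nt, where the differences were 1.83, 0.52 and 0.40.

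Fetal growth genes that are not imprinted, most of which turn off after birth, were measured for comparison. Of 6 measured, 4 were called higher and 1 lower for 2151R against 2208L, 3 and 3 for 2225L against 2208L, and 0 and 3 for 2225L against 2151R. That is 83.3%, 100% and 50%, against 48.8%, 32.9% and 48.6% of all genes. Igf2bp1 and Igf2bp3 are on this list too. Hmga2, a chromatin protein of embryonic growth, was 2.25 to 2.64 in 2151R, 2.49 in T11, -2.69 and -6.63 in 2225L and -1.98 to 0.00 in 2208L. Lin28b, which blocks let-7 microRNAs, was lower in 2225L than in 2208L and 2151R (-4.69 and -6.08). Hmga1 was lower in 2208L than in 2151R and 2225L (differences 4.61 and 3.02 from 2208L). Gpc3, a growth-restraining proteoglycan, was called higher in 2225L than in 2208L (3.17), but not without replicate 1 or 2 of 2225L (3.39 and 2.95). In PBS against 3day nt none of the 6 was called by limma.

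Of 25 other imprinted genes, 6 were called higher and 5 lower for 2151R against 2208L, 6 and 6 for 2225L against 2208L, and 4 and 6 for 2225L against 2151R. That is 44%, 48% and 40%, against 48.8%, 32.9% and 48.6% of all genes. Snrpn, a splicing protein gene of the paternal copy, was 3.28 to 4.03 in 2208L and -1.81 to 0.64 in all other samples (-4.32 for 2151R and -3.74 for 2225L). Nnat, a neuronal membrane protein gene, was higher in 2225L (4.38 and 3.14) than in 2208L by 4.97 and in 2151R than in 2208L by 2.08. Zrsr1, a splicing factor gene, was lowest in 2225L (-2.99 and -4.15; difference from 2208L -3.79). Mkrn3 was lower in 2151R than in 2208L by a difference of -3.38, and Sfmbt2 was lower in 2151R (-2.16) and 2225L (-1.87). Dcn, a matrix proteoglycan that is also on the fibroblast list, was higher in 2151R than in 2208L by 3.56. Called higher there were 3 of 10 fibroblast genes including Dcn, 4 of 10 adipocyte, 6 of 8 endothelial and 6 of 8 macrophage genes. The same held for 1 of 10 epithelial genes, 0 of 15 adult muscle genes and 0 of 6 embryonic muscle genes, and for 26.1% of all genes. In PBS against 3day nt 5 of 25 were higher and 3 lower (32%, against 34.0% of all genes), led by Gpr1 (1.91), Airn (1.18) and Sfmbt2 (0.97) above and Gatm (-1.30), Commd1 (-0.77) and Blcap (-0.55) below, and none of these 6 was called with replicate 7 as the 1 sample of 3day nt, where the differences were 1.90, 1.45, 0.63, -1.34, -0.54 and -0.44.

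In 2151R, 2208L and the PBS samples of 2208L, none of the members had a single sample far from the rest by Dixon's criterion, in 30 tests where chance flags about 1 in 20. That criterion does not flag 2 samples that stand together, as replicates 6 and 8 of 2208L did in Igf2 (-1.53 and -2.88). The PBS samples are also part of 2208L, and in groups of 4 only a large gap is flagged. Within 2225L the 2 samples differed by more than 1 log2 unit in 5 of 10 members, as in 34.1% of all genes: Dlk1 (2.41), Peg3 (1.98), Mest (1.68), Meg3 (1.32) and Plagl1 (1.18) were all higher in replicate 1. The other 5, H19, Igf2, Cdkn1c, Peg10 and Grb10, differed by less (replicate 1 minus replicate 2: -0.61, -0.56, 0.49, -0.20 and 0.55).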

How the data were processed

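The 10 members were taken by symbol from the 1 deposited table, which gives log2 values for 17271 genes in 15 samples, made by the authors from RNA-seq (total RNA, oligo-dT libraries, per the labels' protocols). The submitters' processing notes name STAR, Salmon and the build mm10; their roles, the annotation, strandedness and scaling are not given in the sources used here. That the log2 values the authors deposited are centred per gene rests on the table's name and values (-14.55 to 13.11); the reference is not the median of these 15 samples, since 1124 genes have a median of 0. No values were altered. Of all genes, 727 have a value shared by several samples, but none of the members does.

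limma 3.58.1 in R 4.3.3 (lmFit, eBayes without trend) was fitted to 15 samples (1 coefficient per model) and to the 7 PBS and 3day nt samples, with Benjamini-Hochberg adjustment over 17271 genes. On simulated data of 17271 genes with 200 changed, the share of changed genes found was 80% at 2 log2 units and 53% at 1 for 2151R against 2208L, 61% and 22% for 2225L against 2208L, 55% and 15% for 2225L against 2151R, and 39% and 1% for PBS against 3day nt. In these simulations 42 to 142 genes were called, whereas 32.9% to 48.8% of all genes were called in the data. With so few changed genes the Benjamini-Hochberg cutoff on p was stricter than in the data. These shares therefore do not measure what the tests of the data could find. Members, lists, marker lists, named genes and tests were chosen with earlier results of these data known. The text names all members and cluster genes, and of other lists the 3 called genes with the largest difference in a direction; others are named where stated or to complete a pair. Listed genes absent from the table were left out (2 of 17 in the H19 cluster, for example). Positions and gene order came from RefSeq GRCm38.p6, the assembly called mm10, in which 16179 genes (93.7%) were placed by symbol. Samples were grouped by title; replicate numbers follow accession order. In no pair of samples of a group were the values the same throughout; the closest pair differed by a median of 0.175 log2 units.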

Additional observations from a re-analysis of the deposited data

How the results depend on the processing

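No paired analysis was possible because replicate numbers were assigned in accession order, as no title gives one. Depth is unknown, so its limit on low genes could not be read. Alternatives were planned, except that restricting the fit to library prefix CP was chosen after seeing the data. The 3 samples of high muscle values were picked from the values themselves, as no label marks them, so leaving them out was not independent of the data.

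In 2151R against 2208L, H19, Peg3 and Cdkn1c kept their calls in every alternative run, and 2 members instead of 1 were called higher (Mest beside Peg10) with quantile normalization, sample weights, without the 25% of genes of lowest SD, without genes with a repeated value, with only the groups compared in the fit, with only prefix CP and with prefix as a covariate; leaving out 1 sample at a time gave 1 to 2. Over all genes, calls of at least 1 log2 unit numbered 2585 higher and 2566 lower, against 4508 and 3926, and the NT, nt and PBS samples alone gave 2658 higher. In 2225L against 2208L sample weights called 1 member higher instead of 3 (Igf2 at 8.29, adjusted p = 0.0758, and Mest at 2.07, adjusted p = 0.0922, were lost), and 958 genes higher and 1200 lower, against 2693 and 2994. In 2225L against 2151R sample weights called 2529 genes higher and 2723 lower, against 3934 and 4464. Leaving out 1 sample at a time gave 2 to 3 members higher and 2 to 3 lower in the former, and 4 and 2 in the latter, against 5 and 2.

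In PBS against 3day nt quantile normalization called 1 member lower (Plagl1), with Grb10 called higher at 1.16 against 0.23, and sample weights 3 (Igf2, Meg3 and Plagl1), against 0. Over all genes, sample weights called 5938 higher and 5754 lower, calls of at least 1 log2 unit numbered 1206 and 1002, and without the 3 samples of high muscle values 76 and 22 were called, with 0 members higher, against 3007 and 2857. Leaving out 1 sample at a time gave 1362 to 3988 genes higher and 1017 to 3111 lower, with 1 to 4 members higher and 0 to 3 lower; the lowest counts were without replicate 8, and without replicate 6 they were 1723 and 1227, and without replicates 2 and 3 the counts lower were 1844 and 1780. In T11 against the mean of 2208L, H19 was -5.06 and Grb10 -4.51 with quantile normalization. The cause of these changes was not tested. No member's called difference changed sign in any alternative.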
